A study of Mus musculus with 16 samples.

Results

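The tuft cell markers described here are 9 genes, Dclk1, Trpm5, Pou2f3, Il25, Avil, Alox5, Ptgs1, Il17rb and Sh2d6, taken by name from the 41740 genes in the deposited count tables. Levels were read in 16 libraries of total RNA from the ileum of male STAM mice at 20 weeks of age, with 1 library per mouse. All the mice carried the floxed insulin receptor gene (InsR-flox) and received streptozotocin as newborns and then a high-fat diet, which makes them diabetic with a fatty, inflamed liver. Control-STAM-nonINS (n = 4) were Vilin-Cre(-) without insulin, Control-STAM-INS (n = 6) were Vilin-Cre(-) with insulin, and ieIRKO-STAM-INS (n = 6) were Vilin-Cre(+) with insulin. Both insulin groups had the same agent, insulin degludec, a long-acting insulin, at up to 12 U per kg. The Cre of the last group is driven by the villin promoter, which acts in the intestinal epithelium and not in the muscle, nerve and immune cells that share the ileal wall. The paper states that controls in its study of insulin-treated ieIRKO-STAM mice received normal saline. These groups are called untreated controls, insulin-treated controls and ieIRKO-STAM-INS below, where untreated means without insulin.

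Tuft cells are rare epithelial cells that sense the gut contents through a taste-like cascade ending in the cation channel Trpm5. They need the transcription factor Pou2f3, release the cytokine IL-25, leukotrienes and prostaglandins, and in the small intestine start the type 2 response to worms and to succinate-producing protists. Dclk1, a microtubule-associated kinase, Avil, an actin-bundling protein, and Sh2d6, an adaptor with an SH2 domain, are markers of the mature cell. Alox5 and Ptgs1 make leukotriene and prostaglandin precursors, and Il17rb is a subunit of the IL-25 receptor.

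Library depth lay between 13288018 and 22215382 counted reads. Levels are given in CPM, read counts made comparable between libraries, after TMM normalization, and a gene was called changed where edgeR's quasi-likelihood test gave an adjusted p under 0.05 over the 15267 genes that passed the filter on low counts. Insr, the floxed gene, was at 105 ± 12.2 CPM (SD, n = 4) in untreated controls, 62.7 ± 10.1 (SD, n = 6) in insulin-treated controls and 67.2 ± 13.3 (SD, n = 6) in ieIRKO-STAM-INS. The libraries labelled ieIRKO-STAM-INS did not have less Insr than insulin-treated controls (log2 fold change 0.10, adjusted p = 0.805 from edgeR), so that group is named below as its label gives it. The counts are summed over the whole gene and over all cells of the tissue, so the floxed stretch and the epithelium are not read apart. ieIRKO-STAM-INS replicates 2 and 3 were high in B cell genes (summed level of 4 genes 19.4 to 28.7 CPM in untreated controls, 17.3 to 29.1 CPM in insulin-treated controls and 24.03 to 354 CPM in ieIRKO-STAM-INS), and results were also computed without them. In whole tissue, fewer tuft cells and less RNA per tuft cell cannot be told apart.

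All but 1 of the 9 genes were measured above the filter. Per kilobase of merged exon length in untreated controls, Ptgs1 had the highest level (10.4 ± 1.92 CPM per kb, SD), followed by Sh2d6 (2.62 ± 0.666), Avil (2.15 ± 0.161), Trpm5 (1.13 ± 0.124), Dclk1 (0.779 ± 0.0817), Alox5 (0.636 ± 0.168), Il17rb (0.592 ± 0.208), Pou2f3 (0.407 ± 0.216) and Il25 (0.0629 ± 0.0621). In that order, Sh2d6 and Avil differed by less than the larger SD of the pair, and so did each step from Dclk1 through Alox5 and Il17rb to Pou2f3, while the steps from Trpm5 to Dclk1 and from Pou2f3 to Il25 were larger than both SDs. In insulin-treated controls and in ieIRKO-STAM-INS, the order from Ptgs1 to Dclk1 was the same, and each step among Dclk1, Alox5, Il17rb and Pou2f3 was again less than the larger SD of the pair. Ptgs1 stood apart from the other members in every group, at 7.30 ± 0.971 CPM per kb in insulin-treated controls and 6.81 ± 0.871 in ieIRKO-STAM-INS. For Dclk1 the merged exons of all annotated transcripts span 15.296 kb, so a level per kb of any 1 of its transcripts is not given by this value.

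The stretch upstream of the start site is shown for 4 members, chosen after their values were seen. Trpm5 and Ptgs1 were the members called, Sh2d6 had an estimate with insulin close to that of Trpm5, and Avil had the only window that holds the motif named next. Each run is the 250 bases before the RefSeq start site on GRCm38.p6, 5′ to 3′ on the strand of the gene, with the 7 bases ATGCAAA, the start of the octamer bound by POU factors such as Pou2f3, in capitals where they occur on either strand. The windows are chr7:143094643-143094892 (minus strand), chr6:72520037-72520286 (minus strand), chr10:127000459-127000708 (plus strand) and chr2:36230176-36230425 (plus strand).
Trpm5: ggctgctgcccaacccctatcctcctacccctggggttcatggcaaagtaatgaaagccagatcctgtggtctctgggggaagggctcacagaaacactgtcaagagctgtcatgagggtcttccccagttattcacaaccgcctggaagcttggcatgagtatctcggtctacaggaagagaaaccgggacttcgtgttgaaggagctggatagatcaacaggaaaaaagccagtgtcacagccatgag
Sh2d6: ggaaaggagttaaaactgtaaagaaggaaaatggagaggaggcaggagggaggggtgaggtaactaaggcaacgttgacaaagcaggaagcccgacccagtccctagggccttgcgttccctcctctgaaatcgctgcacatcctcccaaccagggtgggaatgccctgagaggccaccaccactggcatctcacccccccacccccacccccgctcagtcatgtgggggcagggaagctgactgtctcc
Avil: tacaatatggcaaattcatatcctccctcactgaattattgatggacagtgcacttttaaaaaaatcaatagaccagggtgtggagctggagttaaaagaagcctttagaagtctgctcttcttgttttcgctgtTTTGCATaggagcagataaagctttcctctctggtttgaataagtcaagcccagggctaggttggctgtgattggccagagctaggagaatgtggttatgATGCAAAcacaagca
Ptgs1: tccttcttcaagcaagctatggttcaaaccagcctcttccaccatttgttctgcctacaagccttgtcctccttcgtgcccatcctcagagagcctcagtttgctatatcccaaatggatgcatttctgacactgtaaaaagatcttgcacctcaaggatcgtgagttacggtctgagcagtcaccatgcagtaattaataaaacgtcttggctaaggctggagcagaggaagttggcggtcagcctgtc
The RefSeq table held 8 windows for 7 of the 9 members, and Pou2f3 and Il25 had no entry. The full octamer ATGCAAAT was in 0 of the 8 windows and in 1.6% of all 32851 windows of that length. ATGCAAA, which every full octamer contains, was in 1 of the 8, that of Avil, and in 4.12% of all windows. In Avil it occurred at 2 places, on the other strand with its first printed base 115 bases before the start site, and on the strand of the gene with its first base 15 bases before it. A match of letters describes the window and is not a measurement of binding.

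**Figure D1:**
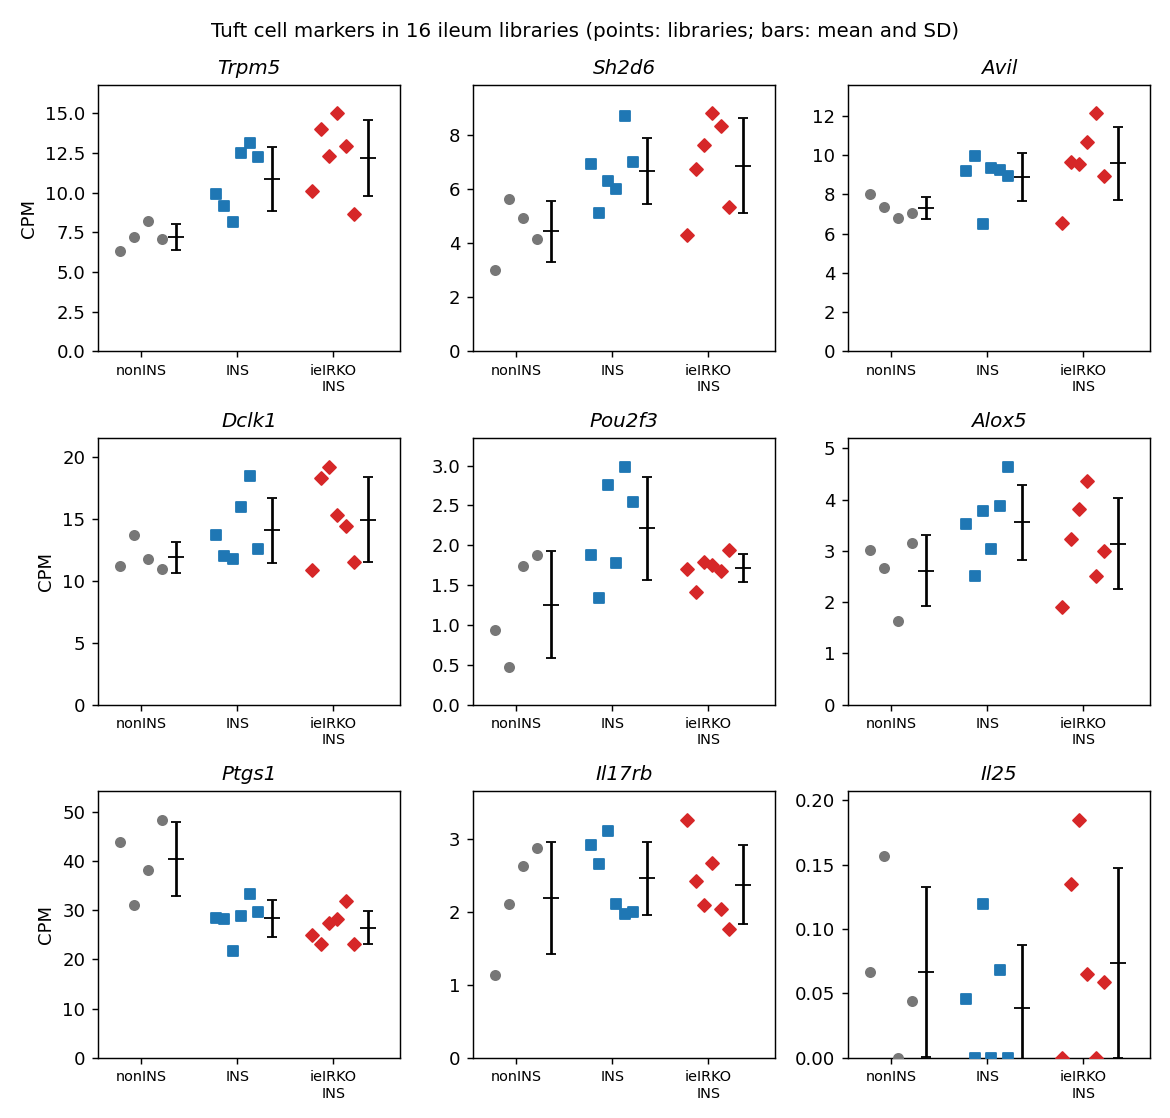
Level of each tuft cell marker in CPM (vertical axes, from 0) in every library of untreated controls (nonINS, grey), insulin-treated controls (INS, blue) and ieIRKO-STAM-INS (ieIRKO INS, red), with the mean and SD as bars. Trpm5 is higher and Ptgs1 lower in most libraries of both insulin-treated groups than in untreated controls, and Il25 stays under 0.2 CPM throughout.

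Insulin treatment of the control genotype was compared first, insulin-treated controls against untreated controls. Of the 8 members tested, 1 rose, Trpm5, and 1 fell, Ptgs1, while the other 6 did not pass the test. Over all genes tested 10.5% were called in this comparison, 3.73% as higher and 6.76% as lower. An unadjusted p under 0.05 was found for 4 of the 8 members and for 25.4% of all genes. The median log2 fold change was 0.36 over the 8 members and -0.0043 over all genes. The fold changes of 7 of the 8 were above 0, and for 0 of the 8 did the groups have no overlap, against 10.6% of all genes.

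Trpm5, the channel that depolarises the tuft cell, lies on the minus strand of chromosome 7 (143069153 to 143094642, GRCm38). It was at 6.30, 7.21, 8.22 and 7.08 CPM in the 4 untreated control libraries and at 8.14 to 13.1 CPM with a median of 11.1 in the 6 insulin-treated control libraries. All but 1 of the treated libraries, replicate 3, lay above every untreated library. The log2 fold change was 0.59 (SE 0.17, 95% interval 0.23 to 0.94, adjusted p = 0.0334 from edgeR). Trpm5 was no longer called without untreated control replicate 1 or 4, or without insulin-treated control replicate 4, 5 or 6 (adjusted p of 0.0651 to 0.109 from edgeR), and its log2 fold change stayed between 0.53 and 0.66. When libraries were scaled to epithelial genes, it was 0.56 with an adjusted p of 0.253 from edgeR, and with the replicate block it was 0.57 with an adjusted p of 0.0629.

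Part of Trpm5 overlaps Tssc4, a gene on the plus strand, over 220 exonic bases or 3.44% of its exon length. The sources used here do not say whether reads were counted by strand, so reads of that stretch cannot be told apart. Tssc4 was at 13.8, 16.5, 16.4 and 16.8 CPM in untreated controls and at 16.7 to 23.9 CPM with a median of 19.99 in insulin-treated controls, a log2 fold change of 0.35 (adjusted p = 0.108 from edgeR). The count of Trpm5 per count of Tssc4, a ratio chosen after the values were seen, ranged from 0.422 to 0.5 in untreated controls and from 0.341 to 0.669 in insulin-treated controls. These groups overlapped (1.18-fold higher with insulin, exact two-sided permutation test on log2 ratios, p = 0.243, and 0.729 adjusted over 12 ratio tests). The ratio divides by all counts of Tssc4, a separate gene, so it does not separate reads of the shared 220 bases. It is a different quantity from the level of Trpm5. Avil and Il17rb overlap Tsfm and Actr8 on their other strands over 165 and 141 exonic bases, and neither partner was called in this comparison (log2 fold changes 0.20 and 0.04).

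Ptgs1, cyclooxygenase-1, is on the plus strand of chromosome 2 (36230426 to 36252272, GRCm38). Its level was 43.9, 31.1, 38.1 and 48.3 CPM in untreated controls and 21.7 to 33.3 CPM with a median of 28.6 in insulin-treated controls. Of the 6 treated libraries, 5 lay below every untreated library, and replicate 5 lay above the lowest of them. The log2 fold change was -0.51 (SE 0.13, 95% interval -0.78 to -0.24, adjusted p = 0.0167 from edgeR). The call was lost without untreated control replicate 1 (adjusted p = 0.0614) or 4 (adjusted p = 0.067) and with scaling to epithelial genes (adjusted p = 0.152), all from edgeR, with log2 fold changes of -0.47, -0.41 and -0.56.

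Ptgs1 is also made by platelets, mast cells and other cells of the gut wall. Of 3 platelet genes, 2 passed the filter and neither changed, their summed level was 2.59 to 5.47 CPM in untreated controls, 2.17 to 4.00 CPM in insulin-treated controls and 2.77 to 3.93 CPM in ieIRKO-STAM-INS, and Ppbp was at 0 in 10 of the 16 libraries. Of 7 mast cell genes, 3 passed the filter and 1 fell, Hdc, the histidine decarboxylase of histamine-making cells (log2 fold change -1.31, adjusted p = 0.0172 from edgeR). Over all genes, 6.76% were called as lower with insulin. The defining mast cell genes Cpa3, Fcer1a and Ms4a2 were at 0.21 CPM or less in every library. The mast cell proteases Mcpt1 and Mcpt2 reached 2.31 and 1.10 CPM at most, and Mcpt2 had a log2 fold change with insulin of 1.14 (adjusted p = 0.432 from edgeR), while Mcpt1 did not pass the filter. For the list as a whole, the summed level of all 7, mostly Kit, was 34.2 to 46.4 CPM in untreated controls, 30.4 to 42.5 CPM in insulin-treated controls and 30.3 to 41.7 CPM in ieIRKO-STAM-INS. Summed smooth muscle genes were at 2344 to 2742 CPM in untreated controls, 1947 to 3035 CPM in insulin-treated controls and 2147 to 3022 CPM in ieIRKO-STAM-INS, and 0 of 5 were called. Untreated control replicate 4, with the highest Ptgs1 of all libraries, also had the highest Hdc (2.71 CPM), the highest sum of platelet genes and, among untreated controls, the highest sum of myeloid genes (229 CPM). The part of these cells in the fall of Ptgs1 was not tested.

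Trpm5 and Ptgs1, both expressed by tuft cells, moved in opposite directions with insulin. Within a library, the number of Ptgs1 counts per Trpm5 count does not depend on library size. It was 6.97, 4.30, 4.64 and 6.82 in untreated controls, 2.31 to 3.07 with a median of 2.603 in insulin-treated controls, and 1.65 to 2.68 with a median of 2.34 in ieIRKO-STAM-INS. Every library of both treated groups lay below every untreated library. The ratio in insulin-treated controls was 0.474 times that in untreated controls as a geometric mean, a description with no test, since the pair was chosen for its opposite changes in these libraries. Between ieIRKO-STAM-INS and insulin-treated controls the ratio differed 0.835-fold with overlapping groups.

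**Figure D2:**
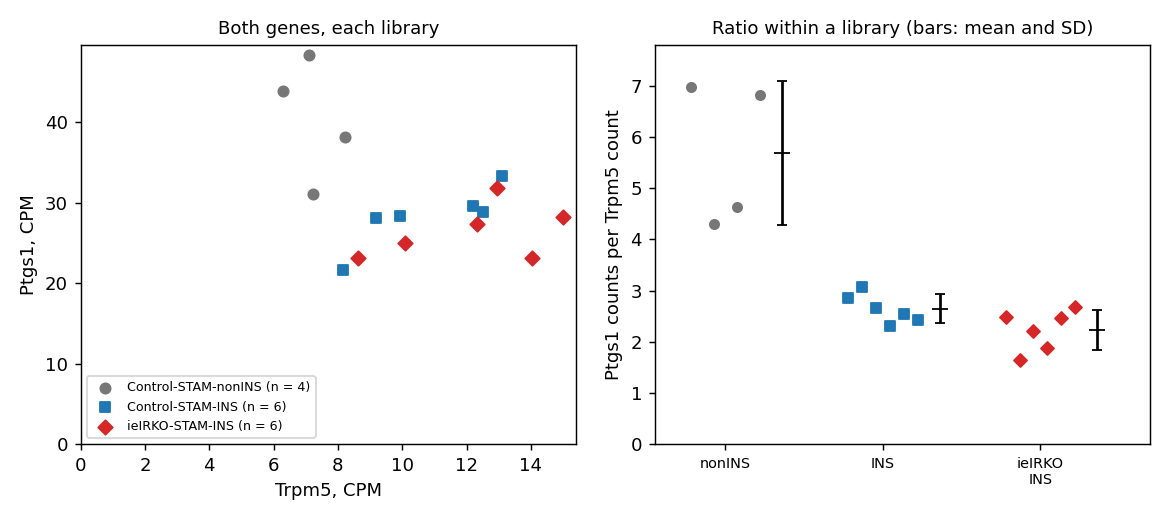
Left, Ptgs1 against Trpm5 in CPM, 1 point per library, in untreated controls (grey circles), insulin-treated controls (blue squares) and ieIRKO-STAM-INS (red diamonds). Right, Ptgs1 counts per Trpm5 count in each library with the mean and SD, where the 4 untreated libraries lie at 4.30 or above and the 12 treated libraries at 3.07 or below.

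Pou2f3, the master transcription factor of the lineage, was measured with few reads. The 4 untreated control libraries held 0.938, 0.470, 1.73 and 1.88 CPM, from 6 to 43 counts, and the insulin-treated control libraries held 1.33 to 2.99 CPM with a median of 2.21. The groups overlapped, and untreated control replicate 2 was the lowest of all. Pou2f3 had the highest point estimate of the 8 with a log2 fold change of 0.78 (SE 0.31, 95% interval 0.13 to 1.43, adjusted p = 0.117 from edgeR), and did not pass the test. With 1 library left out its log2 fold change spanned 0.54 to 1.04 and that of Sh2d6 0.45 to 0.73, so these ranges overlapped.

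Sh2d6 was at 3.01, 5.64, 4.92 and 4.15 CPM in untreated controls and at 5.10 to 8.69 CPM with a median of 6.60 in insulin-treated controls. All but 1 of the treated libraries exceeded the untreated ones, and its log2 fold change of 0.59 (SE 0.22, 95% interval 0.14 to 1.04, adjusted p = 0.0866 from edgeR) was close to that of Trpm5 but missed the threshold. With DESeq2 in place of edgeR, Sh2d6 was called (adjusted p = 0.0437). Avil stood at 8.04, 7.37, 6.77 and 7.04 CPM in untreated controls and at 6.47 to 9.96 CPM with a median of 9.21 in insulin-treated controls. In insulin-treated controls, 5 of 6 libraries were above all untreated libraries and 1, replicate 3, was below them all. Its log2 fold change of 0.28 (SE 0.16, 95% interval -0.05 to 0.61, adjusted p = 0.278 from edgeR) did not pass.

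Dclk1, the classical tuft cell marker, is also expressed by neurons. It was at 11.2, 13.7, 11.8 and 10.98 CPM in untreated controls and at 11.7 to 18.5 CPM with a median of 13.1 in insulin-treated controls, and the groups overlapped, with a log2 fold change of 0.24 (SE 0.17, 95% interval -0.11 to 0.59, adjusted p = 0.397 from edgeR). Of 7 enteric neuron genes 1 was called in this comparison, Ret (by edgeR, log2 fold change 0.58, adjusted p = 0.0293), where 10.5% of all genes were called. The 7 summed to 72.3 to 87.4 CPM in untreated controls, 70.8 to 98.2 CPM in insulin-treated controls and 70.1 to 89.7 CPM in ieIRKO-STAM-INS. The part of neurons in the level of Dclk1 was not tested.

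Alox5, the 5-lipoxygenase of tuft cells and of myeloid cells, was at 3.01, 2.67, 1.62 and 3.15 CPM in untreated controls and at 2.51 to 4.64 CPM with a median of 3.65 in insulin-treated controls. The groups overlapped, with a log2 fold change of 0.45 (SE 0.25, 95% interval -0.07 to 0.96, adjusted p = 0.266 from edgeR). Of 8 myeloid genes, 6 passed the filter and 1 rose with insulin, Itgam (by edgeR, log2 fold change 1.29, adjusted p = 0.00098). Over all genes, 3.73% were called as higher in that comparison. The 8 summed to 139 to 229 CPM in untreated controls, 180 to 220 CPM in insulin-treated controls and 177 to 502 CPM in ieIRKO-STAM-INS. S100a8 and S100a9, which mark neutrophils, did not pass the filter, and the part of myeloid cells in the level of Alox5 was not tested. Il17rb, which tuft cells and the innate lymphoid cells that answer them both carry, was at 1.14, 2.12, 2.63 and 2.89 CPM in untreated controls and at 1.97 to 3.11 CPM with a median of 2.39 in insulin-treated controls, and its log2 fold change was 0.16 (SE 0.25, 95% interval -0.37 to 0.69, adjusted p = 0.754 from edgeR). The interval of Il17rb covers changes of either sign.

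Il25, the cytokine itself, was at the limit of detection. It had 15 counts over all 16 libraries, 0 in 6 of them and at most 3 in any, and did not pass the filter. A count of 0 allows a level of up to 3 counts, between 0.131 and 0.235 CPM depending on the library, and no library exceeded 3 counts. Mean levels were 0.0669, 0.0389 and 0.0739 CPM in untreated controls, insulin-treated controls and ieIRKO-STAM-INS. Exact two-sided permutation tests gave p = 0.51 for insulin-treated controls against untreated controls, 0.329 for ieIRKO-STAM-INS against insulin-treated controls and 0.9 for ieIRKO-STAM-INS against untreated controls (0.765, 0.765 and 0.9 adjusted over the 3 tests). A difference in Il25 was not detectable at this depth.

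**Figure D3:**
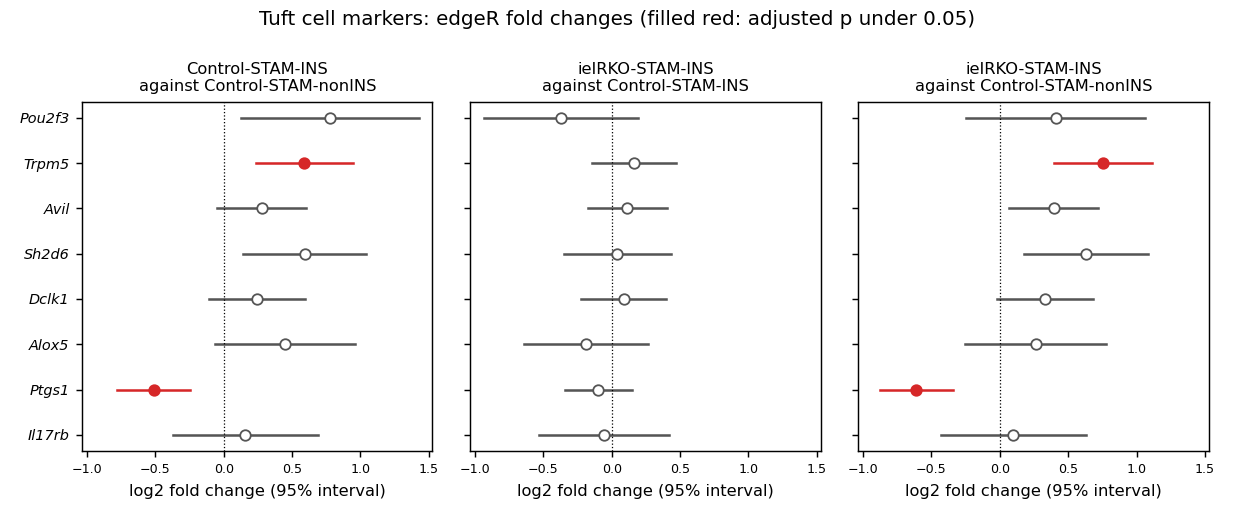
log2 fold change with its 95% interval (horizontal axes) of the 8 tested members in the 3 comparisons, with filled red points where the adjusted p from edgeR was under 0.05. Trpm5 and Ptgs1 are called in the left and right panels and 0 of 8 members in the middle panel.

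The genotype labelled as lacking Insr in the epithelium was examined by comparing ieIRKO-STAM-INS with insulin-treated controls, both treated with insulin. Of the 8 members tested, 0 were called by edgeR, 0 had an unadjusted p under 0.05 and DESeq2 called 0. Over all genes 0.223% were called and 11.3% had an unadjusted p under 0.05. Their log2 fold changes ran from -0.37 for Pou2f3 to 0.16 for Trpm5, 4 above 0 and 4 below, with a median of -0.0076 against 0.017 over all genes. For 0 of the 8 members did the groups have no overlap, against 0.845% of all genes.

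Trpm5 in ieIRKO-STAM-INS was at 8.64 to 14.98 CPM with a median of 12.6, a log2 fold change from insulin-treated controls of 0.16 (SE 0.15, 95% interval -0.14 to 0.47, adjusted p = 0.706 from edgeR). Ptgs1 was at 23.1 to 31.8 CPM with a median of 26.2, and its log2 fold change was -0.10 (SE 0.12, 95% interval -0.34 to 0.15, adjusted p = 0.791 from edgeR). Of the ieIRKO-STAM-INS libraries, 2 lay above every insulin-treated control library for Trpm5 and the others within their range, while for Ptgs1 all lay within it, and the intervals leave room for changes of up to 0.47 for Trpm5 and down to -0.34 for Ptgs1 on the log2 scale.

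In ieIRKO-STAM-INS, Sh2d6 was at 4.29 to 8.79 CPM with a median of 7.19 and Avil at 6.54 to 12.1 CPM with a median of 9.59, with log2 fold changes from insulin-treated controls of 0.04 (95% interval -0.35 to 0.43) and 0.11 (-0.17 to 0.40). Dclk1 was at 10.9 to 19.2 CPM with a median of 14.9 (log2 fold change 0.09, 95% interval -0.22 to 0.40). Its highest 2 libraries, at 19.2 and 18.3 CPM, were replicates 3 and 2, which were also high in B cell genes. Without them the log2 fold change of Dclk1 was -0.12 and that of Sh2d6 was -0.0037, so neither kept its sign.

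Pou2f3 was at 1.42 to 1.94 CPM with a median of 1.73 in ieIRKO-STAM-INS, with an SD of 0.172 CPM against 0.644 in insulin-treated controls. Its log2 fold change of -0.37 had a 95% interval of -0.93 to 0.19 and all libraries lay within the range of insulin-treated controls. Alox5 was at 1.91 to 4.36 CPM with a median of 3.12 and Il17rb at 1.76 to 3.27 CPM with a median of 2.26. Their log2 fold changes were -0.19 (95% interval -0.64 to 0.27) and -0.06 (-0.53 to 0.42).

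ieIRKO-STAM-INS was also compared with untreated controls. Here genotype and insulin treatment differ together, and the comparison shares its control libraries with that of insulin-treated controls. Of 8 members tested, 1 rose and 1 fell, against 13.3% of all genes called, 5.74% as higher and 7.59% as lower, and 4 had an unadjusted p under 0.05 against 29.4% of all genes. Trpm5 was higher in all 6 ieIRKO-STAM-INS libraries than in any untreated library, with a log2 fold change of 0.75 (SE 0.17, 95% interval 0.40 to 1.11, adjusted p = 0.00736 from edgeR), and was the only member of the 8 whose groups did not overlap, against 8.56% of all genes. Tssc4 on the other strand was also called (by edgeR, log2 fold change 0.54, adjusted p = 0.0134), and its groups had no overlap. The ratio of Trpm5 to Tssc4 counts differed 1.16-fold with overlapping groups (exact permutation p = 0.395, adjusted 0.933). Here too it does not separate reads of the shared stretch.

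Ptgs1 fell by 0.61 on the log2 scale (SE 0.13, adjusted p = 0.00497 from edgeR), with 5 of 6 ieIRKO-STAM-INS libraries below every untreated library. Sh2d6 had a log2 fold change of 0.63 (adjusted p = 0.0596) and Avil of 0.39 (adjusted p = 0.0992), both from edgeR and neither past the threshold, but Sh2d6 was called by DESeq2 (adjusted p = 0.027) and by edgeR's likelihood ratio test (adjusted p = 0.0453). Pou2f3, Dclk1, Alox5 and Il17rb were at 0.41, 0.33, 0.26 and 0.10. Without ieIRKO-STAM-INS replicates 2 and 3 both calls stood, at 0.70 for Trpm5 (adjusted p = 0.0286) and -0.57 for Ptgs1 (adjusted p = 0.0197), by edgeR. With scaling to epithelial genes neither passed, at log2 fold changes of 0.79 and -0.62 (adjusted p = 0.0686 and 0.0934).

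Members differed in how far they varied together. Over the 16 libraries, Pearson's r of log2 CPM was 0.82 between Trpm5 and Sh2d6, 0.75 between Trpm5 and Dclk1, 0.73 between Dclk1 and Sh2d6 and 0.69 between Trpm5 and Avil. After each group's mean was subtracted, the same pairs had r of 0.68, 0.72, 0.67 and 0.49. Pou2f3 and Il17rb, at lower counts, had r under 0.5 with every other member in the first case. Ptgs1 had r of -0.43 with both Trpm5 and Sh2d6 over all libraries, and of 0.43 and 0.14 after the group means were subtracted, and with Avil it had -0.15 and 0.55. These values describe 16 points that share library, depth and cell makeup.

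**Figure D4:**
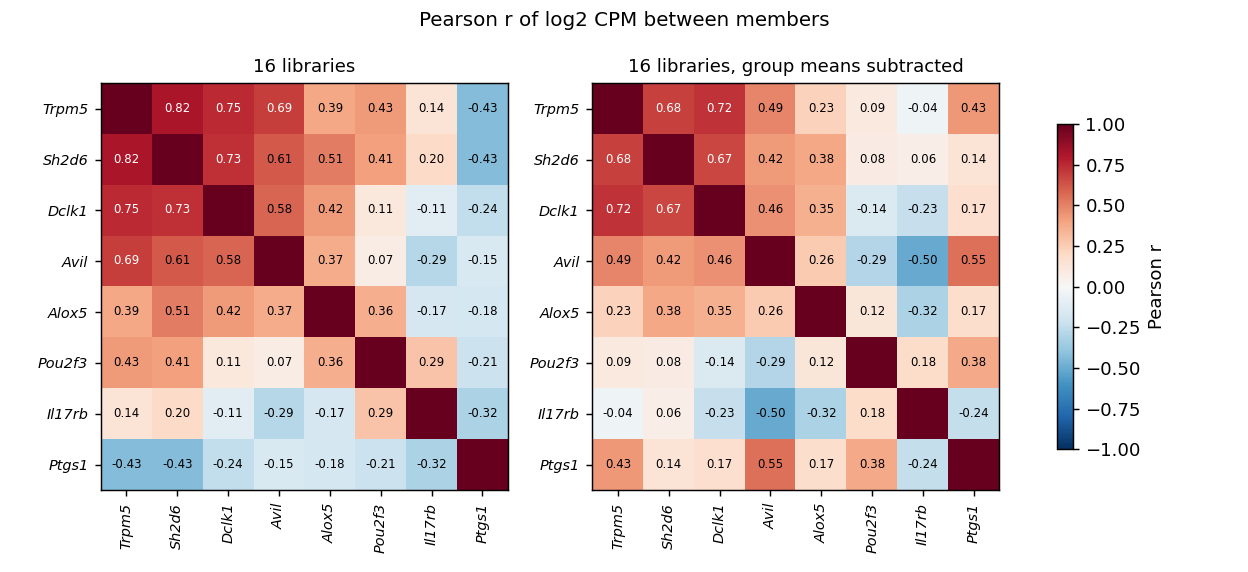
Pearson's r of log2 CPM between each pair of the 8 tested members, over 16 libraries (left) and after each group's mean was subtracted (right), from blue at -1 to red at 1. Trpm5, Sh2d6, Dclk1 and Avil form the block of high values at the upper left, and the row of Ptgs1 changes from blue to red between the panels except with Il17rb.

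The 10 genes whose levels most resembled the mean log2 CPM of Trpm5, Pou2f3, Avil and Sh2d6 over the 16 libraries, among 15259 other genes, included Gm11946 (r = 0.92), Gm11627 (0.885), Atf6b (0.878), Csf2ra (0.876), Zfp459 (0.875), Epm2a (0.872), Sh2d7 (0.871) and Rtl6 (0.865). After group means were subtracted, r was between 0.598 for Epm2a and 0.793 for Gm11946. The likeness over 16 libraries includes the differences between groups, so the changes of these genes with insulin are part of how they were chosen, and 0 of the 10 were among the first 10 once group means were subtracted. As a description, log2 fold changes with insulin were 1.41 for Gm11946, 1.99 for Gm11627, 0.49 for Atf6b, 0.30 for Csf2ra, 0.53 for Zfp459, 1.36 for Epm2a, 0.93 for Sh2d7 and 0.68 for Rtl6.

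Of 35 further tuft cell genes, 30 passed the filter, and Gnat3, Gnb3, Gng13, Vmn2r26 and Gfi1b did not. With insulin in the control genotype, 1 rose and 2 fell (Ltc4s and Krt18), against 3.73% and 6.76% of all genes, which is near the rate over all genes, and the median log2 fold change was 0.16. By edgeR, 0 of the 30 were called between ieIRKO-STAM-INS and insulin-treated controls, where 0.223% of all genes were called, 8 of the 30 had an unadjusted p under 0.05, against 11.3% of all genes, and DESeq2 called 0 too. Between ieIRKO-STAM-INS and untreated controls, 3 rose, Lrmp and Fyb among them, and 1 fell (Ltc4s), with a median of 0.38, and the share over all genes was 13.3%, so that this count too was near the general rate. By edgeR, Ltc4s had a log2 fold change of -0.90 there and was not called with scaling to epithelial genes (-0.94, adjusted p = 0.0974), with the replicate block (-0.79, adjusted p = 0.0988), without ieIRKO-STAM-INS replicates 2 and 3 (-0.95, adjusted p = 0.0512) or without any 1 of untreated control replicates 1, 3 and 4.

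Ltc4s, the leukotriene C4 synthase that acts after Alox5, was at 4.96, 2.51, 5.37 and 7.26 CPM in untreated controls, 1.29 to 3.14 CPM with a median of 2.52 in insulin-treated controls and 2.38 to 3.00 CPM with a median of 2.79 in ieIRKO-STAM-INS. The untreated libraries were the higher ones except replicate 2, and the log2 fold change with insulin was -1.07 (SE 0.25, 95% interval -1.60 to -0.54, adjusted p = 0.0119 from edgeR). It was not called without untreated control replicate 4 (adjusted p = 0.0577) or with the replicate block (log2 fold change -0.98, adjusted p = 0.0502), both by edgeR. The other enzymes of the route, Alox5ap, Hpgds and Pla2g4a, had log2 fold changes with insulin of 0.06, 0.46 and -0.19 and were not called.

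Krt18, a keratin of simple epithelia that tuft cells hold at high level, was at 358, 317, 384 and 342 CPM in untreated controls and at 215 to 268 CPM with a median of 250 in insulin-treated controls. All insulin-treated control libraries lay below all untreated ones, with a log2 fold change of -0.50 (SE 0.13, 95% interval -0.76 to -0.24, adjusted p = 0.0169 from edgeR). In ieIRKO-STAM-INS it was at 223 to 367 CPM with a median of 307, which overlapped both other groups. It was not called without untreated control replicate 1 (adjusted p = 0.0519) or 3 (adjusted p = 0.0601), or with scaling to epithelial genes (adjusted p = 0.0645), by edgeR, with log2 fold changes of -0.49, -0.45 and -0.53.

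Lrmp and Fyb, which tuft cells share with lymphocytes, and Spib, Inpp5d and Cd300lf had their highest levels in ieIRKO-STAM-INS replicates 2 and 3. Spib, a transcription factor of B cells and tuft cells, was at 58.0 and 31.9 CPM there and at 10.7 or less in the other 14 libraries. Its log2 fold change from insulin-treated controls was 1.46 (adjusted p = 0.32 from edgeR), the largest of the list, followed by Inpp5d (0.85) and Cd300lf (0.79), and the part of B cells in it was not tested. Without those 2 libraries the log2 fold changes were 0.098 for Spib, 0.0997 for Inpp5d and 0.085 for Cd300lf. With insulin in the control genotype, a comparison of other libraries, Lrmp and Fyb were higher in all 6 treated libraries than in any untreated one (log2 fold changes 0.59 and 0.52) and were called only when fitted on the groups compared alone (by edgeR, adjusted p of 0.00884 and 0.0249). Against untreated controls, Lrmp in ieIRKO-STAM-INS had a log2 fold change of 1.13 (SE 0.29, 95% interval 0.51 to 1.75, adjusted p = 0.0185 from edgeR) and of 0.60 without the 2 libraries (adjusted p = 0.0404). Its call was lost with only the groups compared (adjusted p = 0.0765), with scaling to epithelial genes (adjusted p = 0.0617) and without untreated control replicate 1 (adjusted p = 0.0639), by edgeR. Fyb had 0.69 (SE 0.21, 95% interval 0.24 to 1.14, adjusted p = 0.0403 from edgeR) and 0.35 without them (adjusted p = 0.183), and was called neither with scaling to epithelial genes, with the replicate block nor with only the groups compared (adjusted p of 0.176, 0.056 and 0.117 from edgeR). Leaving out untreated control replicate 1 or 3 or ieIRKO-STAM-INS replicate 2, 3 or 5 also ended the call of Fyb. Matk, a kinase adaptor, had a log2 fold change with insulin of 0.77 and was not called by edgeR (adjusted p = 0.0814), but was by DESeq2 (adjusted p = 0.0367) and by edgeR without untreated control replicate 3 (log2 fold change 1.03, adjusted p = 0.0393).

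**Figure D5:**
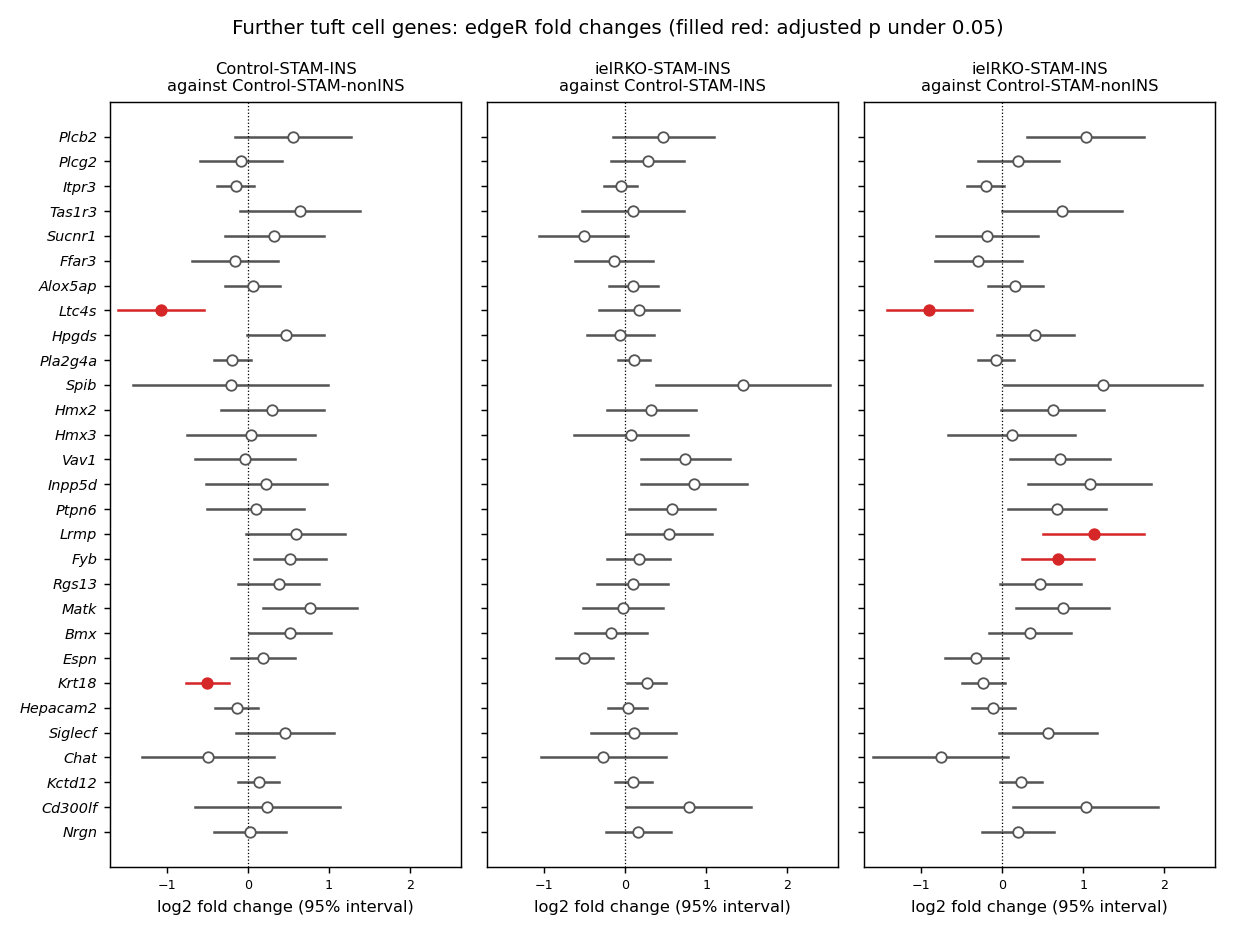
log2 fold change with its 95% interval (horizontal axes) of further tuft cell genes that passed the filter, in the 3 comparisons, with filled red points where the adjusted p from edgeR was under 0.05. Ltc4s is called in the left and right panels, Krt18 in the left and Lrmp and Fyb in the right.

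The genes of the taste-like cascade, which precede Trpm5, were low in part. Of 10, 6 passed the filter and 0 were called in any comparison, where 10.5%, 0.223% and 13.3% of all genes were called in turn, with log2 fold changes with insulin from -0.16 for Ffar3 to 0.64 for Tas1r3. Gnat3, the gustducin alpha subunit, was at 0.131 to 1.19 CPM. Sucnr1, the receptor for succinate, was at 0.470 to 1.33 CPM over the 16 libraries. Plcb2, the phospholipase that signals to Trpm5, had a log2 fold change of 0.56 with insulin (adjusted p = 0.327 from edgeR) and its 2 highest levels, 14.8 and 11.1 CPM, in ieIRKO-STAM-INS replicates 2 and 3.

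Of 13 genes of the IL-25 and type 2 cytokine circuit, 8 passed the filter. Il4, Il5, Il9, Il13 and Retnlb did not, and Il9 and Il13, the cytokines through which innate lymphoid cells act back on the epithelium, had 0 counts in all 16 libraries. Retnlb, a goblet cell gene induced by IL-13, was at 0 in the 4 untreated control libraries and at up to 1.20 CPM in the others. Stat6, which carries the IL-4 and IL-13 signal, was at 136, 141, 131 and 116 CPM in untreated controls and at 96.6 to 106 CPM with a median of 99.5 in insulin-treated controls, lower in all 6, with a log2 fold change of -0.38 (SE 0.08, 95% interval -0.55 to -0.21, adjusted p = 0.00594 from edgeR). It was not called with scaling to epithelial genes (log2 fold change -0.39, adjusted p = 0.145). In ieIRKO-STAM-INS against untreated controls Stat6 also fell, with a log2 fold change of -0.35 (adjusted p = 0.00917 from edgeR) and 5 of 6 libraries below every untreated one, a call lost with scaling to epithelial genes (log2 fold change -0.32, adjusted p = 0.239). Il4ra, the receptor subunit, had -0.61 (adjusted p = 0.0861) and Tslp -0.49 (adjusted p = 0.556) with insulin by edgeR. Il4ra was called as lower with insulin by DESeq2 (adjusted p = 0.0493) and by edgeR with scaling to epithelial genes (adjusted p = 0.0268) and with the replicate block (log2 fold change -0.69, adjusted p = 0.00522).

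Between ieIRKO-STAM-INS and insulin-treated controls, 0 of these 8 genes were called by edgeR and 1 had an unadjusted p under 0.05, near the 0.223% and 11.3% over all genes, and the largest estimate was Il2rg (0.89, adjusted p = 0.368), the common cytokine receptor chain of lymphocytes, followed by Gata3 (0.32) and Il4ra (0.27). Il2rg was at 31.6 and 25.2 CPM in ieIRKO-STAM-INS replicates 2 and 3 and at 12.1 or less elsewhere. Without those 2 libraries the log2 fold changes from insulin-treated controls were 0.069 for Il2rg, 0.31 for Il4ra and -0.0076 for Gata3. The log2 fold change of Il2rg from untreated controls was 1.32 (SE 0.42, 95% interval 0.44 to 2.21, adjusted p = 0.0468 from edgeR) and was not called without those 2 libraries (log2 fold change 0.52, adjusted p = 0.167). The call of Il2rg was also lost with scaling to epithelial genes, no filter, the replicate block or only the groups compared (adjusted p of 0.167, 0.0842, 0.0746 and 0.134 from edgeR), and without any 1 of the 4 untreated control libraries (0.0609 to 0.141) or ieIRKO-STAM-INS replicate 2, 3 or 5 (0.0564 to 0.0914).

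Other secretory cells of the epithelium give the scale of these changes. Of 8 enteroendocrine genes, 4 fell with insulin, Chga (-0.92), Chgb (-1.84), Neurod1 (-1.15) and Gcg (-0.95, log2 fold changes with adjusted p of 0.0197, 0.0054, 0.0173 and 0.0398 from edgeR), with a median over the list of -0.66, against 6.76% of all genes called as lower. Of 7 goblet cell genes 0 were called by edgeR, 2 had an unadjusted p under 0.05 against 25.4% of all genes, and their median was 0.022. The summed level of 7 epithelial genes was 4934 to 8814 CPM in untreated controls, 7244 to 8786 CPM in insulin-treated controls and 5319 to 8920 CPM in ieIRKO-STAM-INS, lowest in untreated control replicate 4, and 0 of 7 were called. The ileal genes Fabp6 and Slc10a2 together were at 4332 CPM or more in every library, and Fabp6 was called lower in ieIRKO-STAM-INS than in untreated controls (log2 fold change -0.59, adjusted p = 0.0338 from edgeR).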

How the data were processed

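Total RNA of the ileum was sequenced in 16 mice with stranded libraries. The authors aligned the reads to GRCm38 (mm10, per the labels) with CLC Genomics Workbench and deposited 1 table of read counts per gene for each mouse, not normalized. How reads of several genes or of either strand were counted is not given in the sources used here.

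Samples were grouped by their labels, and 0 columns were left unmapped. The members, the gene lists and the alternatives were chosen with earlier results of these data known. Genes were filtered with filterByExpr (minimum count 10, minimum total 15), normalized by TMM and fitted over the 3 groups by edgeR 4.0.16 (robust quasi-likelihood, R 4.3.3), with Benjamini-Hochberg adjustment over 15267 genes. Log2 CPM use a prior count of 2. Levels per kb use merged exons of a GENCODE M21 annotation of GRCm38, in which 97.5% of gene names were found. Single values were tested by exact two-sided permutation. The fit was tested on simulated data with 200 genes changed by 1.5 on the log2 scale. For insulin, 170 of the 200 were recovered, with 15 false calls among 185. For ieIRKO-STAM-INS against insulin-treated controls, 179 were recovered, with 9 false calls among 188. Changes as small as those of the called members were not simulated. Pairs of libraries within a group differed beyond counting noise.

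Named genes were the members, genes of the 2 further lists that were called or were among the 3 largest changes, and the 10 most similar genes, of which some are not reported here. Ratios of counts, Ret, Hdc, Itgam, Plcb2, Tas1r3, Ffar3 and the gene partners on the other strand were named after their values were seen. Alternatives were DESeq2 1.42.0, upper-quartile scaling, scaling to epithelial genes, library sizes without alpha-defensins, other filters, the likelihood ratio test, a replicate block, only the groups compared, ieIRKO-STAM-INS replicates 2 and 3 left out, and each library left out. Labels do not say that replicates are separate litters or cages, so p-values measure the spread between these mice. A level of 0 is limited by counting error only. Figures used matplotlib 3.10.9.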

Additional observations from a re-analysis of the deposited data

Results flagged for a closer look

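Avil, the actin-bundling marker, was at 6.47 CPM in insulin-treated control replicate 3, below the other 5 libraries of that group, which lay between 8.94 and 9.96 CPM. The gap to the nearest library was 0.707 of the whole range of the group, above the 95% critical value of Dixon's test for 6 libraries. It was the only 1 of 27 combinations of a member and a group to exceed its limit, and chance alone marks about 1 in 20. The same library had the lowest Trpm5 (8.14 CPM), Ptgs1 (21.7 CPM) and Dclk1 (11.7 CPM) of its group, but the highest Il17rb (3.11 CPM) and the second highest Pou2f3 (2.75 CPM). Without it, the log2 fold change of Avil with insulin was 0.35 (adjusted p = 0.153 from edgeR).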

How the results depend on the processing

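Of 485 alternative values of the 8 tested members over the 3 comparisons, 454 kept their direction and their side of the threshold, 12 lost a call, 8 gained one and 11 changed sign. With insulin, 2 members were called. Leaving out 1 library at a time gave 0 to 3, DESeq2 3, scaling to epithelial genes 0 and the replicate block 1, because Trpm5 missed the threshold (adjusted p = 0.0629 from edgeR). Replicate numbers did not pair the samples, as given below, so the block adds terms with no known meaning to the fit. For ieIRKO-STAM-INS against insulin-treated controls, every alternative called 0 members and 0 further tuft cell genes. For ieIRKO-STAM-INS against untreated controls, scaling to epithelial genes called 0 members, DESeq2 and the likelihood ratio test 3, with Sh2d6, and leaving out 1 library 2 to 4, the 4 without ieIRKO-STAM-INS replicate 1, where Avil (adjusted p = 0.0293) and Sh2d6 (adjusted p = 0.0218) passed too. Of the further tuft cell genes, 3 were called with insulin, 1 with scaling to epithelial genes and 5 with only the groups compared. Against untreated controls, ieIRKO-STAM-INS had 4, and 7 with DESeq2, 1 with scaling to epithelial genes, 2 with the replicate block, 2 with only the groups compared, 2 without ieIRKO-STAM-INS replicates 2 and 3, and 1 to 9 with 1 library left out, the lowest without untreated control replicate 1 and the highest without ieIRKO-STAM-INS replicate 1. Of the 10 genes most like the tuft cell profile, 0 remained among the first 10 after group means were subtracted and 4 with the mean of all 8 members.

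Some values changed sign. With ieIRKO-STAM-INS replicates 2 and 3 left out, the log2 fold changes from insulin-treated controls were -0.12 for Dclk1, -0.0037 for Sh2d6, -0.0051 for Lrmp, -0.18 for Fyb and -0.0076 for Gata3, and that of Spib from untreated controls was -0.10. The replicate block gave 0.065 for Spib with insulin. Scaling to epithelial genes gave 0.070 for Matk in ieIRKO-STAM-INS against insulin-treated controls. In that comparison the ratio of Trpm5 to Tssc4, a different quantity added after seeing the data, had a log2 difference of -0.019. The log2 fold change of Trpm5 itself stayed between 0.094 and 0.25 there in every alternative fit. With 1 library left out, log2 fold changes spanned -0.053 to 0.32 for Il17rb and -0.32 to 0.35 for Gata3 with insulin. They spanned -0.17 to 0.021 for Il17rb, -0.041 to 0.14 for Sh2d6, -0.14 to 0.077 for Matk, -0.020 to 0.26 for Fyb and -0.0022 to 0.073 for Stat6 in ieIRKO-STAM-INS against insulin-treated controls, and -0.11 to 0.27 for Il17rb against untreated controls. Differences in mean CPM of Il25 spanned -0.0503 to 0.00200 with insulin and -0.0153 to 0.0370 for ieIRKO-STAM-INS against untreated controls. The causes of these changes were not tested.

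Over all genes, 1602 were called with insulin and 539 with scaling to epithelial genes, with 35.6% and 24.5% of them higher. Without untreated control replicate 1 there were 824. For ieIRKO-STAM-INS against insulin-treated controls, 34 were called, 123 by DESeq2 and 90 by the likelihood ratio test, with 17.6%, 52.8% and 43.3% higher. For ieIRKO-STAM-INS against untreated controls, 2036 were called, 640 with scaling to epithelial genes (43.1% and 31.1% higher), 1038 with only the groups compared, 1270 without ieIRKO-STAM-INS replicates 2 and 3 and 1093 without untreated control replicate 1. Replicate numbers did not pair the samples: the correlation of deviations from the group means between same-numbered libraries ran from -0.094 to 0.179, and most libraries correlated best with another number. Il25, Pou2f3 and Il17rb are limited by depth, with at most 3, 52 and 66 counts per library.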
